A study of Homo sapiens with 6 samples.

Results

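Xanthine dehydrogenase (XDH) and 9 enzymes of purine breakdown and salvage were examined in SUM159 cells that overexpress miR-1287-5p, with 8 of the 10 genes measured under a symbol here, out of 14884 genes in all. The microarray signal of XDH was 2.23-fold lower in miR-1287-5p overexpressing cells than in control cells. The measured enzymes that deliver its substrates or salvage purines overlapped between the groups in the transcript cluster that stood for each gene. A second, dimmer transcript cluster of the phosphorylase PNP did not overlap. XDH was chosen by its low signal in overexpressing cells on these same arrays, so its difference is a description. No p-value is printed for XDH, and its place in counts under p thresholds lends it no support. The other genes were taken for their place in the pathway, by gene symbol, with the transcript cluster of the highest mean where a symbol had several. NT5E and NT5C2, which release nucleosides from nucleotides, have no transcript cluster under their symbol here and were not analysed.

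SUM159 cells, a line of triple negative breast cancer (BC), were grown here in medium with insulin, hydrocortisone and serum. The overexpressing cells carried a lentiviral vector with GFP for the mature miR-1287-5p, and the control cells carried the matching control virus, labelled as empty vector. Both were stably transduced lines kept under puromycin, and whether the cultures of a group came from separate transductions is not given in the sources used here. There were 3 overexpressing cultures and 3 control cultures, each measured on its own Human Gene 2.0 ST array (Affymetrix). Their small number limits precision, and p-values weigh a group difference against the spread between cultures of a group. If each group came from 1 transduction, that spread leaves out differences between transductions. The values are log2 signals from RMA, and a signal can be compared between groups for 1 gene but not between genes, since probes differ in brightness.

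The overexpressed miRNA is shown because it is the only intended difference between the groups. Its mature sequence from RefSeq (GRCh38.p14, chr10:98395271-98395292, minus strand, 5′ to 3′) is given with the seed, bases 2 to 8, in capitals.
hsa-miR-1287-5p: uGCUGGAUcagugguucgaguc

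Transcripts that pair with this seed carry its reverse complement, ATCCAGC in DNA letters, in the mRNA. No transcript sequences were searched for it here, so nothing is stated on whether any of the genes below carries such a site. The miR-1287 locus has no transcript cluster with a symbol here, so the overexpression itself was not checked on these arrays.

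Purine nucleotides are broken down in steps. Deaminases turn adenine compounds into hypoxanthine compounds, nucleotidases remove the phosphate, purine nucleoside phosphorylase removes the sugar, and the free bases hypoxanthine and guanine remain. XDH oxidizes hypoxanthine to xanthine and xanthine to urate, the last steps of the route in humans, and its oxidase form gives superoxide and hydrogen peroxide. Salvage enzymes work against this loss by returning bases and nucleosides to nucleotides. In lactating mammary epithelium XDH has a further role, as a partner of butyrophilin and perilipin 2 in the release of milk fat globules.

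XDH had log2 signals of 6.63, 6.93 and 6.80 in the 3 overexpressing cultures, against 8.01, 7.74 and 8.06 in the 3 control cultures. The highest overexpressing culture lay 0.82 below the lowest control culture on the log2 scale, and the spread within a group was small beside that gap. The group means were 6.78 ± 0.15 with overexpression and 7.94 ± 0.17 in controls (SD, n = 3 each), a log2 fold change of −1.15 (standard error 0.15). Sorted by fold change, XDH stood in place 8 from the lowest of the 14884 genes, next to UGT8 (−1.25) and MSANTD4 (−1.11). The signal is from bulk RNA, so fewer cells with XDH transcripts and fewer transcripts per cell cannot be told apart.

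None of the 8 genes had an adjusted p under 0.05 in limma, which 2 of all 53617 transcript clusters (0.00373%) had. XDH was 1 of the 539 transcript clusters (1.01%) with a signal lower by 1.5-fold or more and an unadjusted p under 0.05. It was also the 1 gene of the 8 with all overexpressing cultures below all control cultures, which held for 4.33% of transcript clusters. None of the 8 had all overexpressing cultures above all control cultures in the transcript cluster that stood for the gene, which held for 6.88%. A second, dimmer transcript cluster of PNP did. These counts for XDH rest on the contrast that chose it.

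**Figure D1:**
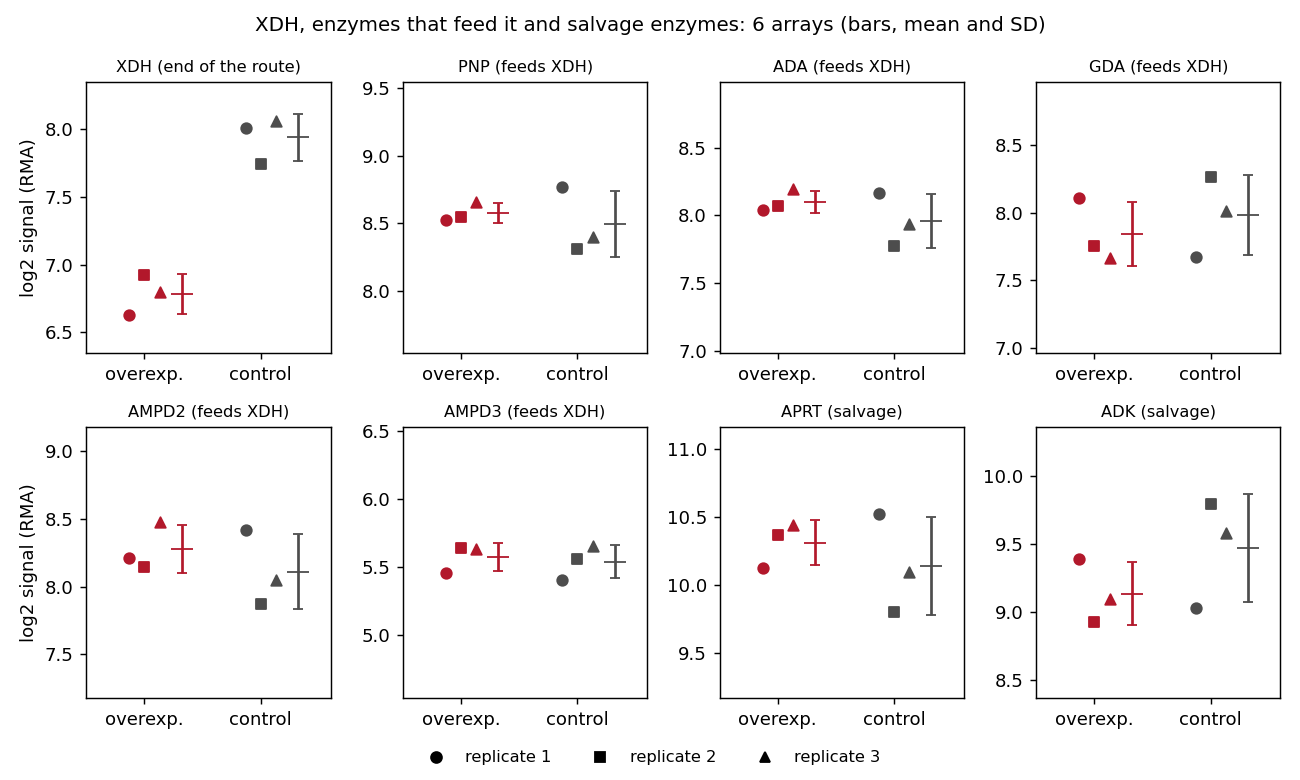
Log2 signal (RMA, y axis, each panel spanning 2 log2 units) of XDH, the 5 measured enzymes that feed it and 2 salvage enzymes in miR-1287-5p overexpressing cultures (red, left) and control cultures (grey, right). Marker shapes are replicates, and bars are the mean and SD of 3 arrays. Only XDH has 2 separate groups of points.

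Of the 7 enzymes listed as feeding XDH 5 were measured, and their log2 fold changes lay between −0.14 and 0.17 with a median of 0.08, beside a median of 0.03 over all transcript clusters. None of the 5 had an unadjusted p under 0.05 in the transcript cluster that stood for the gene, which 5.4% of all transcript clusters had. The smallest adjusted p among them was 0.884 from limma's test.

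PNP, the phosphorylase that yields hypoxanthine for XDH and guanine for GDA, had log2 signals of 8.53, 8.55 and 8.66 in overexpressing cultures, against 8.77, 8.31 and 8.40 in control cultures. The overexpressing cultures all lay inside the control range. The log2 fold change was 0.08 (95% confidence interval −0.29 to 0.45). A second, dimmer transcript cluster of PNP gave another picture, with 6.56, 6.74 and 6.64 in overexpressing cultures against 6.26, 6.09 and 6.42 in control cultures. There every overexpressing culture was above the control cultures, with a log2 fold change of 0.39 (standard error 0.14, with a limma adjusted p = 0.871). It was among the 2895 transcript clusters of all 53617 with an unadjusted p under 0.05. The 2 transcript clusters of PNP thus disagree in size, and the brighter one stood for the gene.

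ADA, which deaminates adenosine to inosine, had log2 signals of 8.04, 8.07 and 8.19 in overexpressing cultures, against 8.16, 7.77 and 7.94 in control cultures. Control replicate 1 lay among the overexpressing cultures and the other two controls below them. Its log2 fold change was 0.14 (95% confidence interval −0.20 to 0.48).

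AMPD2 and AMPD3 deaminate AMP to IMP, the entry to the route from adenine nucleotides. AMPD2 had log2 signals of 8.21, 8.14 and 8.48 in overexpressing cultures, against 8.42, 7.87 and 8.05 in control cultures, a log2 fold change of 0.17 (95% confidence interval −0.26 to 0.59). AMPD3 had log2 signals of 5.45, 5.64 and 5.63 in overexpressing cultures, against 5.40, 5.56 and 5.65 in control cultures, a log2 fold change of 0.04 (95% confidence interval −0.28 to 0.35). Both genes overlapped between the groups, and AMPD3 had the log2 fold change nearest to 0 of the 8.

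GDA, the guanine deaminase that makes xanthine directly, had log2 signals of 8.11, 7.76 and 7.66 in overexpressing cultures, against 7.68, 8.26 and 8.01 in control cultures. It was the one measured feeding enzyme with a negative log2 fold change, −0.14 (95% confidence interval −0.60 to 0.32), and its groups overlapped. For none of the 5 did the interval reach the size of the XDH difference.

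The 2 salvage enzymes pointed in opposite directions. APRT, which joins adenine to phosphoribosyl pyrophosphate, had log2 signals of 10.12, 10.37 and 10.44 in overexpressing cultures, against 10.52, 9.80 and 10.10 in control cultures, a log2 fold change of 0.17 (95% confidence interval −0.31 to 0.65). ADK, which phosphorylates adenosine back to AMP, had log2 signals of 9.39, 8.92 and 9.09 in overexpressing cultures, against 9.03, 9.80 and 9.58 in control cultures. ADK had the most negative log2 fold change after XDH, −0.33 (95% confidence interval −0.87 to 0.20, with a limma adjusted p = 0.871), and control replicate 1 lay inside the overexpressing range. The sign for APRT and for the main PNP transcript cluster rested on control replicate 2, without which their log2 fold changes were −0.001 and −0.007. Without control replicate 1 the log2 fold change was 0.36 for APRT, 0.22 for PNP, 0.32 for AMPD2, 0.24 for ADA, −0.03 for AMPD3, −0.29 for GDA and −0.55 for ADK. Without control replicate 2 it was 0.05 for each of AMPD2, ADA and AMPD3, −0.001 for GDA and −0.17 for ADK. The median of the 5 feeding enzymes was 0.22 without control replicate 1 and 0.05 without control replicate 2, against 0.08 with all arrays.

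**Figure D2:**
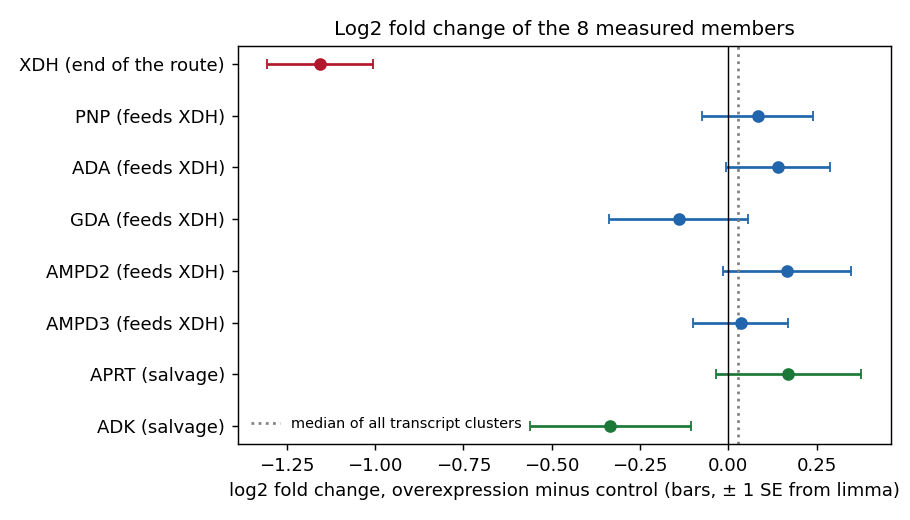
Log2 fold change (x axis, overexpression minus control, bars ± 1 standard error from limma, n = 3 arrays per group) of XDH (red), enzymes that feed it (blue) and salvage enzymes (green). The dotted line is the median of all transcript clusters, 0.03. XDH lies at −1.15 and the other 7 genes lie between −0.33 and 0.17.

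XDH was also set against its feeding enzymes within each array, as its signal relative to the control mean minus the median of the 5 feeding enzymes on the same scale. This difference was −1.39, −1.07 and −1.31 in overexpressing cultures, against −0.13, −0.01 and 0.14 in control cultures. The means were −1.25 ± 0.17 with overexpression and −0.001 ± 0.14 in controls (SD, n = 3 each). The groups stayed apart when each array was read against its own feeding enzymes, and as XDH was chosen on this contrast the comparison carries no test.

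For each of the 7 other enzymes the range over control cultures was wider than the difference between the group means. All 8 genes had a wider range over control cultures than over overexpressing cultures, as had 68.7% of the 10348 genes above the median signal of 4.37. For PNP, which had the largest ratio of control range to overexpression range (3.48), the range was 0.13 over overexpressing cultures and 0.46 over control cultures. PNP, ADA, AMPD2 and APRT were highest in control replicate 1 and lowest in control replicate 2 of the 3 control cultures, and GDA and ADK were the other way round. Among the 10348 genes 35.1% had the first order and 30.1% the second, so these orders are common on these arrays.

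Deviations from the group means, taken over the 6 arrays, described the same pattern. Among PNP, ADA, AMPD2 and APRT Pearson's r was between 0.88 and 0.97 over 6 pairs of genes. GDA and ADK had r = 0.93 with each other and between −0.97 and −0.71 with those 4 genes. XDH had r = 0.70 with APRT, 0.56 with ADA, 0.42 with PNP, 0.36 with AMPD2, −0.73 with ADK and −0.75 with GDA, and AMPD3 had r between −0.52 and 0.38 with the other 7 genes. These genes were grouped after their values were seen, the points share arrays and normalization, and r is given as a description over 6 arrays.

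**Figure D3:**
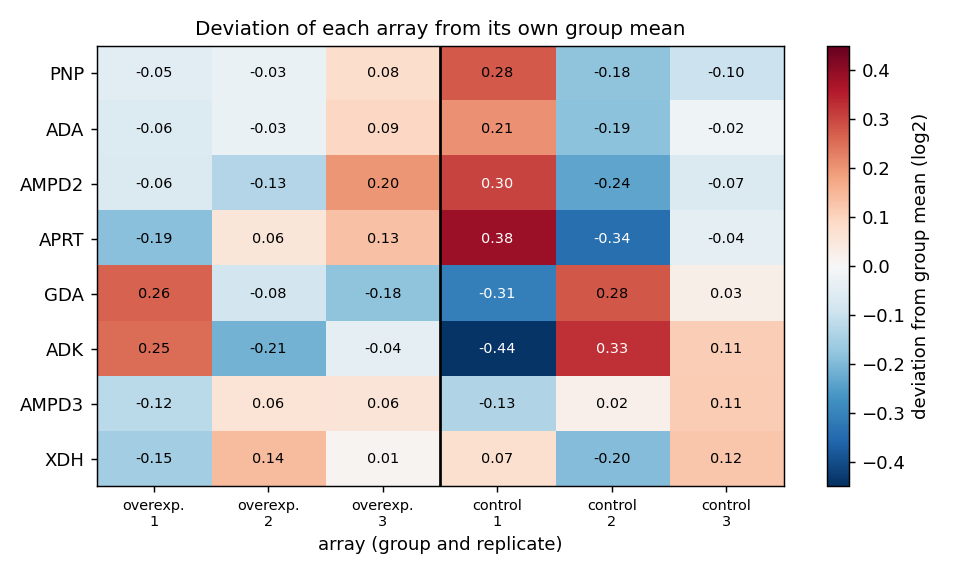
Deviation of each array (columns, overexpressing cultures left, control cultures right) from the mean of its own group, in log2 units by colour and number, for the 8 measured genes (rows). Control replicates 1 and 2 have opposite signs in each of the 8 rows, and the control columns hold the widest deviations for each gene.

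The wider pathway was described with 9 further lists holding 112 genes, of which 69 were measured under a symbol here. None of the 69 passed the adjusted threshold in either direction. At an unadjusted p under 0.05, 4 were lower and 2 higher, and 29 of the 69 (42.0%) had a log2 fold change below 0, as had 48.0% of all genes with a symbol. No overlap between the groups was seen in 8 lower genes (11.6%, against 5.17% of all genes with a symbol) and 10 higher ones (14.5%, against 6.92%). The median log2 fold change was 0.02 over the 69 genes and 0.01 over all genes with a symbol. None of the 69 differed by as much as 1.5-fold in either direction. From each list, up to 4 genes with the smallest unadjusted limma p on these arrays are named below. They were thus picked by their values and need not be typical of their list. AOX1, HPRT1, CIDEA and CD36 are named besides.

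XDH needs a sulfurated molybdenum cofactor, and all 9 genes listed for the cofactor and for other molybdenum enzymes were measured. Their median log2 fold change was −0.11, with 6 below 0, where 48.0% of all genes with a symbol were below 0. The groups did not overlap in 3 lower genes and 1 higher one of the 9. Over all genes with a symbol 5.17% were lower and 6.92% higher without overlap. With so few genes in the list, no result is read from this count. MOCOS, the sulfurase that activates the cofactor for XDH and aldehyde oxidase, had log2 signals of 7.88, 7.63 and 7.66 in overexpressing cultures, against 8.33, 7.99 and 8.02 in control cultures. The groups did not overlap, with a log2 fold change of −0.39 (standard error 0.15, with a limma adjusted p = 0.871). GPHN, gephyrin, which inserts molybdenum, had −0.20 and the mitochondrial reductase MTARC1 0.26, each with groups that did not overlap. MOCS1, of the first step of cofactor synthesis, had −0.21 with overlapping groups. AOX1, the aldehyde oxidase related to XDH, was picked out after its value was seen and had a log2 fold change of −0.01 (mean signals of 9.06 ± 0.28 with overexpression and 9.07 ± 0.25 in controls, SD, n = 3 each).

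Among 5 measured members of the list of further nucleotidases and deaminases, SAMHD1, which hydrolyses deoxynucleoside triphosphates, had log2 signals of 8.65, 8.29 and 8.23 in overexpressing cultures, against 8.68, 8.89 and 8.83 in control cultures. Its log2 fold change was −0.41 (standard error 0.16, with a limma adjusted p = 0.871), with 1 overexpressing culture close to the lowest control culture. ITPA, which clears inosine triphosphate, had 0.13 and LACC1, a purine nucleoside enzyme of macrophages, −0.07. AMPD1, the muscle AMP deaminase, had 0.11 with groups that did not overlap, at signals below the median of all transcript clusters.

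Of 12 listed genes of salvage and nucleotide kinases 10 were measured, with a median log2 fold change of −0.07. AK3, a mitochondrial GTP:AMP kinase, had −0.54 (standard error 0.24, with a limma adjusted p = 0.871) with overlapping groups. AK1 had 0.25 with groups that did not overlap. AHCY, which releases adenosine from S-adenosylhomocysteine, had 0.25 and the guanylate kinase GUK1 0.27, with overlapping groups in each. HPRT1, which competes with XDH for hypoxanthine, was picked out after its value was seen and had a log2 fold change of −0.09 (mean signals of 8.82 ± 0.10 with overexpression and 8.90 ± 0.14 in controls, SD, n = 3 each). Of the 11 genes of purine synthesis de novo 8 were measured, with a median of 0.04. GMPS, which makes GMP, had −0.33, the adenylosuccinate synthase ADSS1 −0.25 and PFAS, of the middle of the route, 0.15, with overlapping groups in each. The IMP dehydrogenase IMPDH2 had 0.11 with groups that did not overlap.

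Outside the cell, adenosine is made from ATP and read by receptors. Of the 12 measured genes of this list 6 were below 0 and 6 above, with a median log2 fold change of −0.01. DPP4, the surface peptidase that binds adenosine deaminase in humans, had log2 signals of 3.65, 3.45 and 3.60 in overexpressing cultures, against 4.01, 4.0 and 4.21 in control cultures, a log2 fold change of −0.50 (standard error 0.13, with a limma adjusted p = 0.817). The receptor ADORA1 had 4.71, 4.75 and 4.98 in overexpressing cultures, against 4.16, 4.62 and 4.15 in control cultures, a log2 fold change of 0.51 (standard error 0.17, with a limma adjusted p = 0.871). Both genes had groups that did not overlap. Both are dim, with signals near or below the median of 4.37, a range in which background can compress a fold change. The pyrophosphatase ENPP1 had −0.41 and the Golgi apyrase ENTPD4 −0.17, each with overlapping groups.

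Pyrimidine salvage and breakdown served as a neighbouring pathway. Of its 9 measured genes 8 had a log2 fold change above 0, between 0.01 and 0.15, and the exception was CDA. Of all genes with a symbol 48.0% were below 0. CDA, the deaminase of cytidine and deoxycytidine, had log2 signals of 8.998, 9.08 and 9.15 in overexpressing cultures, against 9.68, 9.49 and 9.65 in control cultures. The groups were apart by more than either spread, with a log2 fold change of −0.53 (standard error 0.13, with a limma adjusted p = 0.814). The uridine phosphorylase UPP2 had 0.15, at signals below the median of all transcript clusters. The uridine kinase UCK1 and its relative UCKL1 had 0.14 and 0.09.

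The oxidase form of XDH gives hydrogen peroxide, and 9 of 13 listed genes that handle it or superoxide were measured, with a median log2 fold change of 0.08. Catalase (CAT) had log2 signals of 8.75, 8.66 and 8.54 in overexpressing cultures, against 8.91, 9.02 and 8.88 in control cultures, a log2 fold change of −0.29 (standard error 0.13, with a limma adjusted p = 0.871) with no overlap. The glutathione peroxidases GPX3 and GPX1 had −0.28 and 0.23, and the peroxiredoxin PRDX2 0.17. The mean signal of GPX3 over all arrays, 4.16, was below the median of all transcript clusters. Among the 7 measured genes of milk fat globule secretion 1 was below 0 and 6 above, with a median of 0.16. Of all genes with a symbol 48.0% were below 0. The lipid droplet protein CIDEC had 5.27, 5.38 and 5.37 in overexpressing cultures, against 4.71, 5.01 and 4.80 in control cultures, a log2 fold change of 0.50 (standard error 0.13, with a limma adjusted p = 0.817). Its groups did not overlap. PLIN2, which partners XDH on the milk fat globule, had −0.33, PLIN3 0.25 and the casein CSN2 0.37, with overlapping groups in each. PLIN2 was dim, with a mean signal of 4.43 over all arrays, near the median of 4.37. Mean signals of CSN2, CIDEA and CD36, all with log2 fold changes above 0, were below the median of all transcript clusters. The list median of 0.16 is the value of CIDEA.

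**Figure D4:**
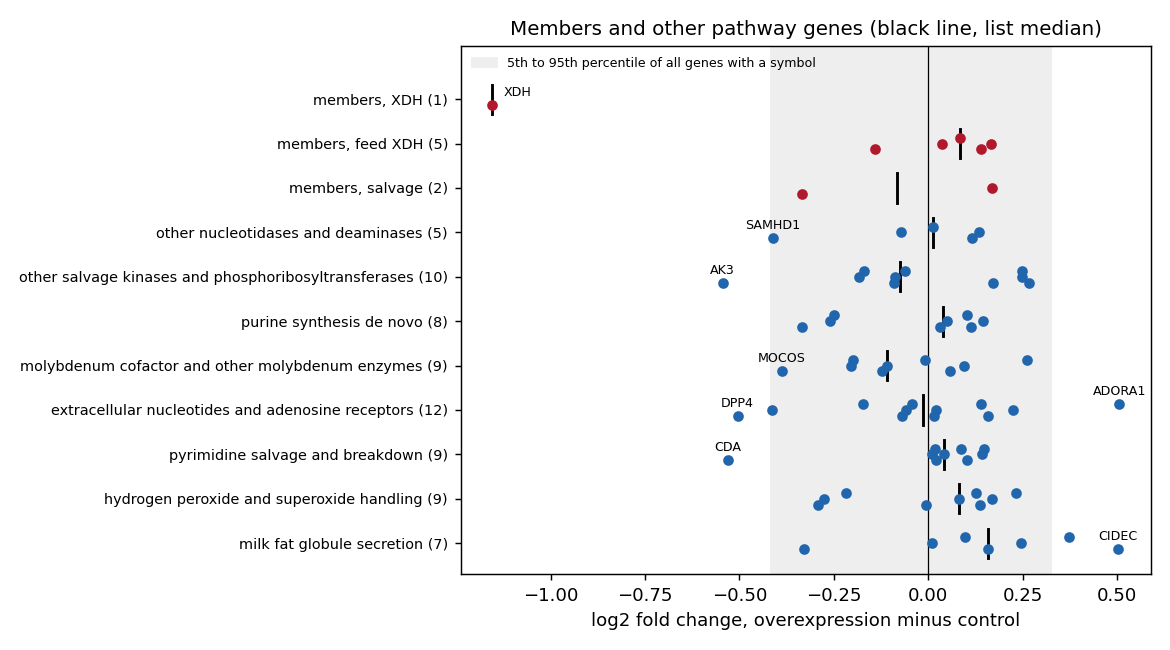
Log2 fold change (x axis, overexpression minus control) of every measured gene by list, with the number of genes in brackets, members in red, other genes in blue and the list median as a black line. The grey band spans the 5th to 95th percentile of genes with a symbol, −0.42 to 0.32, and XDH at −1.15 is the only point beyond −0.60 or 0.60.

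The genes whose signals followed XDH most closely were taken from the 10347 other genes with a symbol above the median signal, by Pearson's r over the 6 arrays. They were the transcription factor ETS2 (r = 0.995), AFG2B (0.993), the desmosomal plakophilin PKP2 (0.987), the myosin light chain kinase MYLK (0.987) and CDA (0.987). Their log2 fold changes were −0.28, −0.14, −0.50, −0.84 and −0.53 in that order, a shared direction that the choice by r with XDH fixes. An r of at least 0.9 was reached by 95 of the 10347 genes, and since r over both groups follows the group difference, it says little beyond it. With the group means removed, r was 0.96 for ETS2, 0.90 for AFG2B, 0.81 for PKP2, 0.69 for MYLK and 0.81 for CDA, over the same 6 arrays on which these genes were picked.

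The markers fixed for the cell line are signals of different probes and are given by group, with no level read against another. VIM and CD44, markers of mesenchymal basal cells, had group means of 10.82 and 9.18 with overexpression and 10.94 and 9.12 in controls. The receptors ESR1 and PGR had 4.23 and 3.56 with overexpression and 4.21 and 3.70 in controls, which lay below the median of all transcript clusters, though a signal alone does not tell whether a transcript is present. EPCAM had 4.54 with overexpression and 4.14 in controls, the keratin KRT18 10.33 with overexpression and 10.20 in controls, and the endothelial PECAM1 3.16 with overexpression and 3.57 in controls. None of these 7 genes had an unadjusted p under 0.05, and ERBB2 and PTPRC have no symbol here. The median log2 signal of the arrays was between 4.33 and 4.42.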

How the data were processed

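Total RNA of 6 SUM159 cultures was measured on Human Gene 2.0 ST arrays (Affymetrix). The authors made the deposited log2 values with Partek Genomics Suite 6.6 by RMA (background correction, quantile normalization over all chips, log2, median polish per transcript cluster), with a filtering step that is named but not described. These values were used without further normalization. Gene symbols came from the platform table, which names 16098 of 53617 transcript clusters and none with several symbols, and a check against RefSeq (GRCh38.p14) changed 0 of them.

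Groups were compared by limma 3.58.1 (R 4.3.3; lmFit, then eBayes; unpaired and two-sided), and p-values were adjusted after Benjamini-Hochberg over 53617 transcript clusters. Intervals use the moderated standard error. The fit was tested on simulated data. With 3 arrays a group, exact permutation reaches no two-sided p under 0.1, so it was not used for single genes. XDH, chosen on this contrast, took part in the fit and its counts under p thresholds, but its p-value is not printed.

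The members and lists were chosen with earlier results of these data known. Named were the members, up to 4 genes per list with the smallest p, the 5 genes most like XDH, its neighbours and the cell line markers. AOX1, HPRT1, CIDEA and CD36 were named besides. Of 15 urate, nucleoside and nucleobase transporters 0 have a symbol here. Alternatives were array weights, cyclic loess, centred array medians, an intensity trend, a replicate block, the methods' t-test (unpaired Student test), leaving out dim transcript clusters, averaging the transcript clusters of a symbol and leaving out each array.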

Additional observations from a re-analysis of the deposited data

How the results depend on the processing

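The log2 fold change of XDH stayed between −1.25 (without control replicate 2) and −1.08 (without overexpression replicate 1) over 14 alternatives. With array weights 1 gene of the 8 was under an adjusted p of 0.05, XDH, which lends it no support as XDH was chosen on these arrays, and XDH minus the median of its feeding enzymes was −1.41. In that fit control replicate 3 had a weight of 7.91, while control replicate 1 had 0.366 and control replicate 2 had 0.514, so that 1 array dominated the control mean, and 11845 transcript clusters had an unadjusted p under 0.05. The 2 transcript clusters at an adjusted p under 0.05 became 0 with the methods' t-test, 0 with the replicate block, 1 with cyclic loess, 5 with dim transcript clusters left out and 25 with array weights. The count was 0 with any one of the 6 arrays left out, with an unadjusted p under 0.05 in 1959 (without control replicate 3) to 6892 transcript clusters (without control replicate 1; 2895 in the main setting, 3070 by the methods' t-test and 2161 with the block). The replicate numbers were not taken as pairs, as same-numbered arrays had correlations of −0.47, −0.002 and −0.08 between their deviations. Differently numbered arrays ranged from −0.44 (overexpression replicate 3 with control replicate 2) to 0.47 (overexpression replicate 1 with control replicate 2). No other member and no other pathway gene passed under any alternative. The log2 fold change of PNP was 0.24 with both transcript clusters averaged, and AMPD3 was −0.06 with array weights. All 8 genes passed the filter on dim transcript clusters.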

Other observations

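XDH lies on chromosome 2, and the 5 nearest genes measured under a symbol on each side in RefSeq order (LCLAT1 to EHD3 before it, MEMO1 to MIR558 after it) gave no common direction. Of these 10 neighbours 5 had a log2 fold change below 0, with a median of −0.01 and a range of −0.38 to 0.29. Of the 5 above 0, CAPN13, CAPN14 (0.29) and MIR558 had mean signals below the median of 4.37. The other neighbours were brighter, with GALNT14 and MEMO1 above 0 and 5 below 0. EHD3, next to XDH on one side, had a log2 fold change of −0.03, and MEMO1, next to it on the other, 0.01. BIRC6 and SPAST, the lowest of the 10, had −0.38 each. Both were lowest in control replicate 1 and highest in control replicate 2, with 7.09, 8.80 and 8.04 for BIRC6 over the 3 control cultures.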
